A study of Mus musculus with 11 samples.

Results

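The promoters of 8 mouse genes for mitochondrial chaperones and proteases were examined for reads of the zinc finger transcription factor ST18. The genes were Hspe1, Hspd1, Hspa9, Trap1, Grpel1, Clpx, Clpp and Lonp1, taken by symbol from a deposited table of 21881 promoter windows of 1000 bp, 1 window a gene. They stand for 7 sites, since Hspe1 and Hspd1 share a divergent promoter. The genes were chosen by the ST18 over input values that are reported here, so these values describe them and no test was made on them.

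The series compares where ST18 binds with what changes after its knockdown in the embryonic mouse cortex. Its chromatin immunoprecipitation (ChIP) part holds 2 ChIP samples, whose molecule label names an HA ChIP, and 1 input sample of genomic DNA, all from in vitro brain cells labelled TN. The molecule label of the input sample also reads HA ChIP, although its title calls it input. The labels give no further allele, treatment or age for these cells, and no RNA of them was used here, so their cell type was not checked against markers. The table has 1 ST18 column, which may hold either or both ChIP samples, and 1 input column, so no value below has a replicate. The 4 knockdown and 4 control RNA samples were not analysed here.

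Most mitochondrial proteins are made in the cytosol, pass through the membranes unfolded and fold in the matrix. There the Hsp70 protein of Hspa9 pulls them in and holds them, with the exchange factor of Grpel1 releasing its nucleotide, and the chaperonin of Hspd1 encloses them under the lid formed by Hspe1. Trap1 encodes the mitochondrial Hsp90. Proteins that fail to fold are degraded by the Lon protease (Lonp1) or by the ClpXP protease, in which the ATPase Clpx unfolds substrates and feeds them to the peptidase Clpp. Chaperone genes of this set are known targets of the mitochondrial unfolded protein response.

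The sequence shown first is the stretch between the head-to-head starts of Hspe1 and Hspd1, because both windows with the most ST18 reads of the set belong to it. RefSeq (GRCm38.p6) places an Hspd1 start 216 bp upstream of the Hspe1 start on the opposite strand, and another Hspd1 start 95 bp inside Hspe1. The stretch of 215 bp lies at chr1:55087933-55088147, is written on the plus strand from Hspd1 towards Hspe1, and has 2 overlapping matches to a heat shock element of 3 units in capitals.
Hspe1-Hspd1: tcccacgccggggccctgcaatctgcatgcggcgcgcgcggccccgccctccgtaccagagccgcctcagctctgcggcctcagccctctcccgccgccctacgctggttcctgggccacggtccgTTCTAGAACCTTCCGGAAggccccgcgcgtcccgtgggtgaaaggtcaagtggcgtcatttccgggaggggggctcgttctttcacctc

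The capitals run from −89 to −72 relative to the Hspe1 start. The element, read by heat shock factors, was searched as TTC, GAA and TTC in a row with NN between each, on both strands, and was held by 0.542% of the 20101 RefSeq stretches of 300 bp around starts of genes with a window. In the same place the core read by ETS factors, CCGGAAG, matched on both strands and overlapped the heat shock element. This core was held by 11.95% of stretches and also matched at Grpel1 and Clpp. A match describes letters and does not show that a factor binds.

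**Figure D1:**
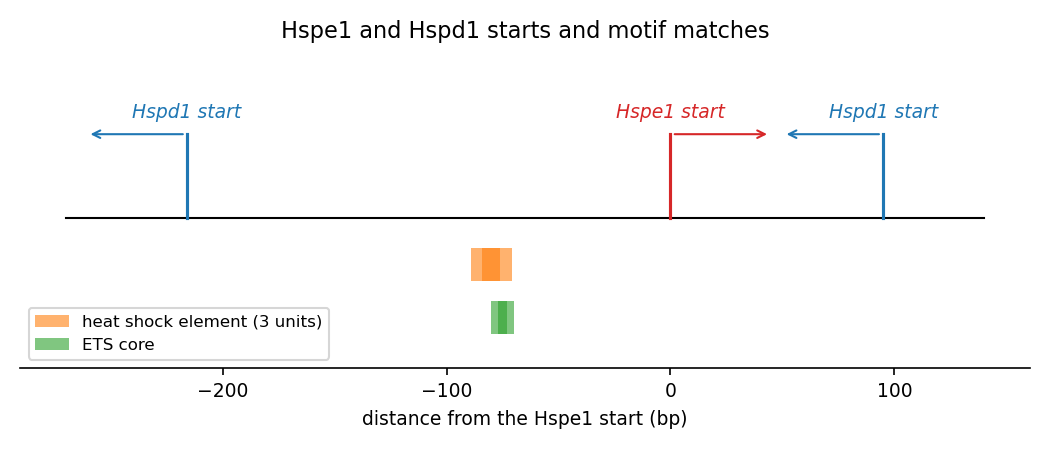
Map of the shared promoter, with the distance from the Hspe1 start in bp on the horizontal axis, arrows for RefSeq starts and bars for motif matches. The heat shock element lies between the Hspe1 start and the Hspd1 start 216 bp upstream.

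The stretches before 3 other starts are shown for the motifs found in them. In Grpel1 (chr5:36464935-36465184, plus strand) the capitals mark a match to the core of the factor NRF1, GCATGCGC, on the minus strand. In Clpx (chr9:65294010-65294259, plus strand) they mark AAAGTTT on the minus strand, the core bound by the MYT1 family of zinc fingers, to which ST18 belongs. In Trap1 (chr16:4077811-4078060, minus strand) they mark the cyclic AMP response element TGACGTCA. Each stretch covers the 250 bases before the start and is written 5′ to 3′ on the strand of its gene.
Grpel1: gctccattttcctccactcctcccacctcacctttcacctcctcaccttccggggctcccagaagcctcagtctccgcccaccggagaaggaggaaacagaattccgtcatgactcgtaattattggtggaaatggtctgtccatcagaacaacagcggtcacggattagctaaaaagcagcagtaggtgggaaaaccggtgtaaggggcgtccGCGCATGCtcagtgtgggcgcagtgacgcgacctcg
Clpx: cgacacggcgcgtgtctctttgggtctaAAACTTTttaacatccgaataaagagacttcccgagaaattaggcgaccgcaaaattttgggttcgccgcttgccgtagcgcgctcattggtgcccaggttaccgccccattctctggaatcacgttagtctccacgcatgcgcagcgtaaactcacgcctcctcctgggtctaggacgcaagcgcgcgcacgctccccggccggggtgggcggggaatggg
Trap1: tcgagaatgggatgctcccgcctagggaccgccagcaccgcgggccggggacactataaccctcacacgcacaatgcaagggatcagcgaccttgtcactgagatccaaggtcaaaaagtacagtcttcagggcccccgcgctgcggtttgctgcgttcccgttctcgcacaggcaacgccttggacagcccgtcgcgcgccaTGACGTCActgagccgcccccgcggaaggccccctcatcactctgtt

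Of the 8 members, 7 had a RefSeq stretch, and Hspa9 is named only. The MYT1 family core was found in 4.29% of all stretches and, among the members, in Clpx alone, at −222 to −216 from its start. The NRF1 core was found in 3.69% of stretches and in Grpel1 and Clpx. The cyclic AMP response element was found in 2.34% of stretches and in Trap1 alone, from −47 to −40. The amino acid response element TGATGNAA, read by ATF4 and CHOP, was found in 3.27% of stretches and in no member. A shorter heat shock element of 2 units, TTCNNGAA, which the longer one contains, was found in 7.62% of stretches, and in Hspe1, Hspd1 and Clpp. All motifs were searched on both strands and within these stretches of 300 bp only, not over the 1000 bp windows in which reads were counted. The stretches of Hspe1 and Hspd1 were rich in G and C, at 71.0% for Hspe1 and at 72.3% and 73.3% for the Hspd1 starts, against a median of 57.0% over 16468 genes. The other 5 ranged from 57.3% in Clpp to 62.7% in Trap1.

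The chaperonin pair held the most reads of the set. The Hspe1 window had 124 reads in the ST18 column and 15 in the input column. The Hspd1 window had 114 and 16. Over all windows the medians were 20 ST18 reads (interquartile range 14 to 26) and 7 input reads (5 to 10), so both columns were high at this site, and the ST18 column more so. Itself included, only 4 of the 21881 windows held at least as many ST18 reads as Hspe1, and 616 (2.82%) held at least as many input reads. For Hspd1 these numbers were 6 and 349 (1.59%).

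The deposited log2 enrichment is the log2 of the scaled ST18 reads plus 16 over the input reads plus 16. On this scale, which draws windows with few reads towards 0, Hspe1 stood at 1.10, rank 7 of all windows, and Hspd1 at 0.96, rank 14. The ratio of ST18 to input reads was also set against that of all promoters, 2.74. The deposited scaling differs from this ratio, so a window at a fold of 1 has a log2 slightly above 0. The fold has no pseudocount. It was 3.02 at Hspe1 (exact 95% interval 1.76 to 5.56) and 2.60 at Hspd1 (1.54 to 4.71). The intervals cover counting error in these columns, and not the choice of the genes or any spread between cultures. Between the pair the log2 values differed by 0.14, and each fold lay within the interval of the other.

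The 114 ST18 reads of Hspd1, taken as a cut-off, were reached by 6 windows, which include the pair by construction. Of these 6, 3 had a log2 enrichment of at least 0.58, against 1.15% of all windows, and nothing is read from this count. They were the pair, which is 1 site, and Hsp90aa1, the inducible cytosolic Hsp90, with 117 reads against 23 and a log2 of 0.70. The other 3 were Mir715 (2468 ST18 and 814 input reads, 0.29), Sfi1 (932 and 309, 0.28) and G530011O06Rik (131 and 63, −0.19), whose input was high as well. These neighbours in read number were singled out after their values were seen.

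The Hsp70 machine came next. Hspa9 held 56 ST18 reads and 8 input reads. Its input was close to the median of all windows, while 0.187% of windows held as many ST18 reads. Its log2 enrichment was 0.69, rank 76, and its fold 2.56 (1.21 to 6.22). Grpel1 held 26 ST18 reads and 2 input reads. In contrast to Hspa9, its ST18 reads were at the upper quartile of all windows, and 94.1% of windows had at least as many input reads. Its log2 enrichment was 0.56, rank 306, and its fold of 4.75, the highest of the 8, had the widest interval (1.19 to 41.3).

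**Figure D2:**
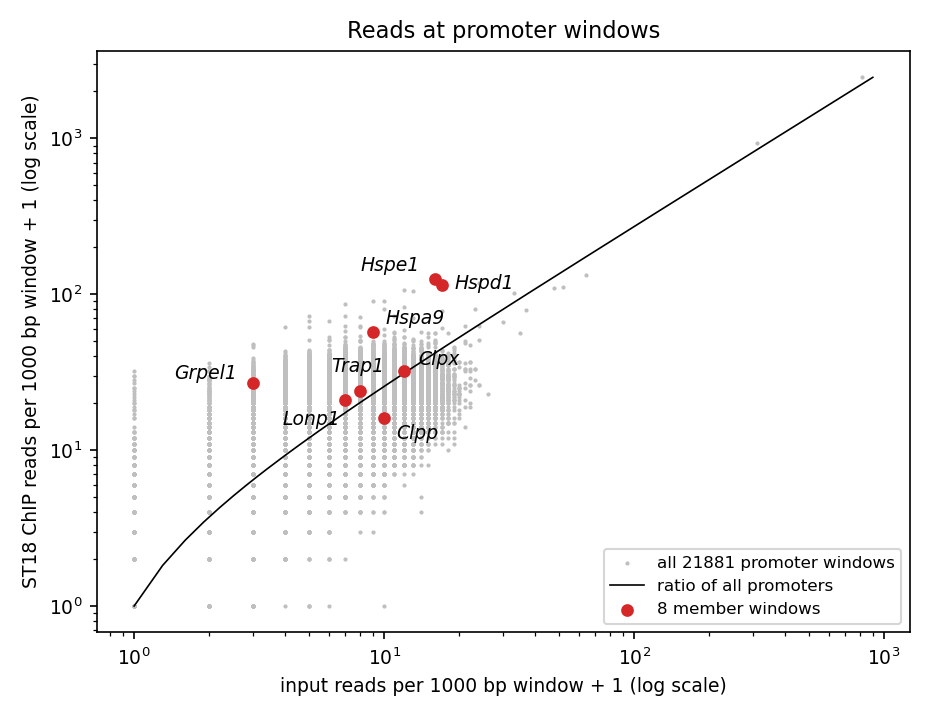
Reads per 1000 bp window plus 1 in the input column (horizontal, log scale) and the ST18 column (vertical, log scale) for all 21881 promoters (grey) and the 8 members (red), with the ratio of all promoters as a line. Hspe1, Hspd1 and Hspa9 lie above the line through high ST18 reads, Grpel1 through 2 input reads.

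The log2 values of the mitochondrial Hsp90 and the proteases lay within the interquartile range of all windows (−0.099 to 0.195), except that of Clpp, which lay below it. Trap1 had 23 ST18 and 7 input reads, a log2 of 0.14 and a fold of 1.20 (0.499 to 3.31). Lonp1 had 20 and 6 reads, a log2 of 0.13 and a fold of 1.22 (0.472 to 3.71). Clpx, which carries the MYT1 family core shown above, had 31 and 11 reads, a log2 of 0.08 and a fold of 1.03 (0.504 to 2.27). Clpp, its partner peptidase, had 15 and 9 reads, a log2 of −0.18 and a fold of 0.609 (0.250 to 1.58), the lowest of the 8. All 4 intervals included 1. With 7 input reads, as in Trap1, at least 43 ST18 reads (2.25-fold) would have been needed for the interval to lie above 1, and with the 6 of Lonp1 at least 40 (2.44-fold), so a smaller enrichment at these promoters was not detectable at this depth.

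**Figure D3:**
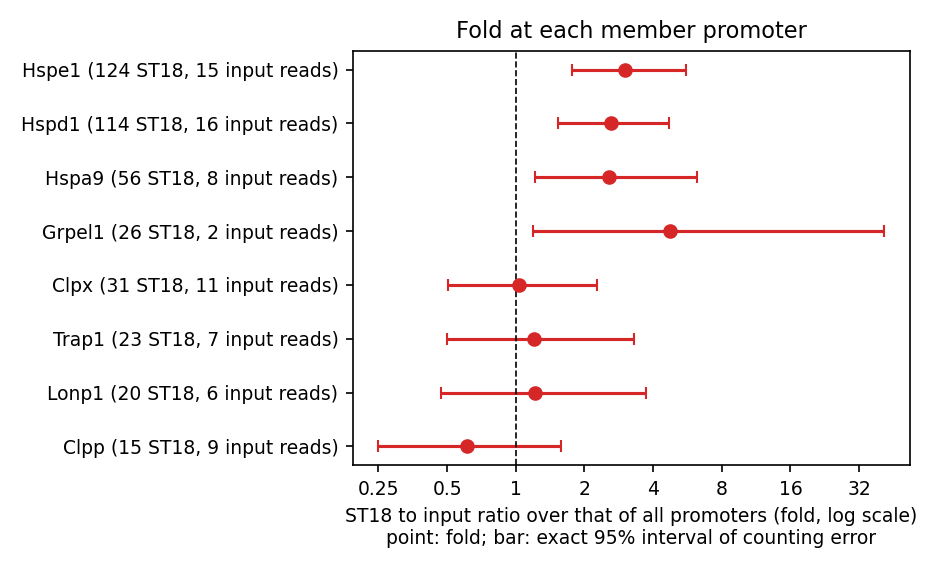
Fold of the ST18 to input ratio over that of all promoters (horizontal, log scale) for each member, with points for the fold and bars for the exact 95% interval of counting error. The bars of Hspe1, Hspd1, Hspa9 and Grpel1 lie above 1, and those of Clpx, Trap1, Lonp1 and Clpp include it.

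In all, 3 of the 8 windows (2 of 7 sites) had a log2 enrichment of at least 0.58, against 1.15% of all windows, and none was at or below −0.58, against 0.219%. A log2 of at least 1 was reached by Hspe1 alone among the 8, against 0.0548% of all windows. The interval of the fold lay wholly above 1 in 4 windows, against 2.43% of the 21358 windows with reads, and wholly below 1 in none, against 3.32%. Since these counts were in view when the genes were chosen, nothing is read from them. The median log2 enrichment was 0.35 over the 8 windows, 0.14 over the 6 outside the pair and 0.04 over all windows.

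Whether Hspe1 and Hspd1 count the same reads was examined through other head-to-head genes, since where a window lies around its start was not stated in the labels or the file. Among 75 gene pairs with divergent starts over 200 and up to 300 bp apart, the distance class of this pair, the log2 enrichments of both windows were correlated (Pearson's r = 0.65). The coefficient was 0.55 over 276 pairs within 200 bp, 0.80 over 75 pairs beyond 300 and up to 600 bp and 0.71 over 31 pairs beyond that and up to 1000 bp. From there to 2000 bp it was 0.06 over 63 pairs, and from 2000 to 5000 bp −0.03 over 144 pairs. The reads themselves, as log2 of reads plus 1, were correlated at every distance: at 0.85 (ST18) and 0.83 (input) in the distance class of this pair, at 0.36 and 0.37 from 1000 to 2000 bp and at 0.63 and 0.45 from 2000 to 5000 bp. Windows of 1000 bp with starts this close can overlap, and all pairs come from the same pair of columns, so these coefficients are descriptions. The values of Hspe1 and Hspd1 are therefore given as those of 1 site.

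**Figure D4:**
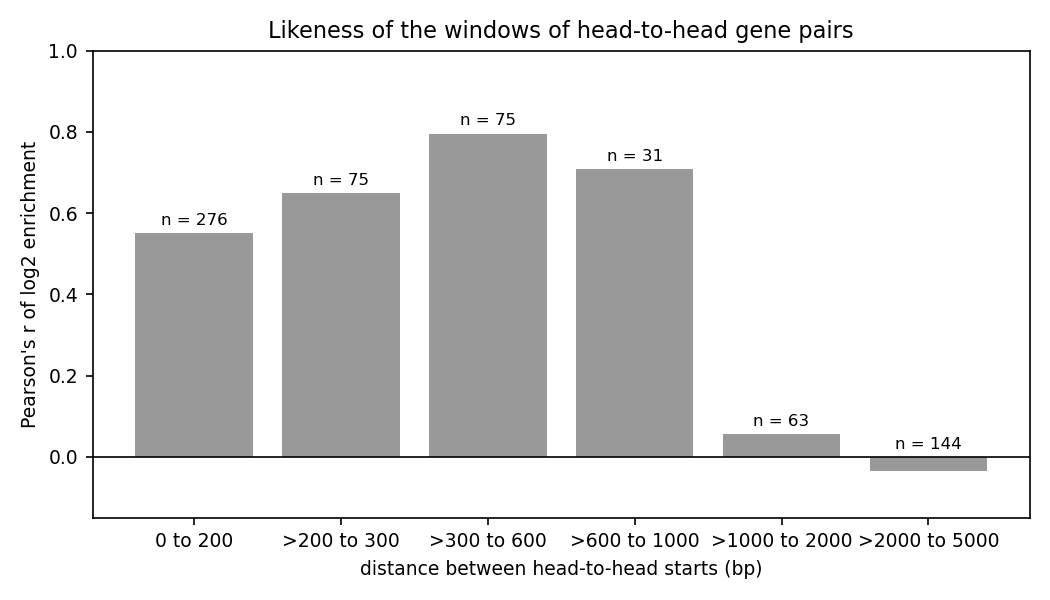
Pearson's r of the log2 enrichment between windows of head-to-head gene pairs (vertical) by the distance between their starts in bp (horizontal), with the number of pairs above each bar. The coefficient is between 0.55 and 0.80 up to 1000 bp and near 0 beyond.

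Hspa9 had no RefSeq stretch, so its head-to-head neighbours could not be looked up, and whether its window shares reads is not known. Of the other members, Lonp1 has a head-to-head neighbour with a window, Catsperd, whose start lies 144 bp away. Catsperd encodes a sperm ion channel subunit and is listed under its older symbol Tmem146. Its window held 30 ST18 and 10 input reads, a log2 of 0.12 and a fold of 1.10 (0.522 to 2.51), near the values of Lonp1. Grpel1 and Clpp face the noncoding genes 2210406O10Rik and Gm33509 at 331 and 341 bp, for which no window was matched. The 3 windows nearest to Hspe1 over both columns, by the Euclidean distance of log2 reads plus 16, were Hspd1 (distance 0.10), Hspa8, the constitutive cytosolic Hsp70 (0.24), and Fzd1, a Wnt receptor (0.26).

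Other genes of mitochondrial protein quality control were taken from lists of co-chaperones, proteases, import factors and stress factors, of which 62 of 64 matched a window. A log2 enrichment of at least 0.58 was found in 1 of the 62, against 1.15% of all windows, and at most −0.58 in 1, against 0.219%. Their median was 0.05, against 0.04 over all windows. The fold interval lay above 1 in 1 window and below 1 in 4, beside the 2.43% and 3.32% of all windows. The gene above was Xpnpep3, a mitochondrial aminopeptidase, which held 82 reads in the ST18 column and 11 in the input (log2 0.87, fold 2.72, 1.45 to 5.67). Head-to-head neighbours were looked up only for members with a RefSeq stretch, so whether the Xpnpep3 window shares reads with another gene is not known. The gene at or below −0.58 was Pmpcb, the catalytic subunit of the mitochondrial processing peptidase, which held 10 and 16 (log2 −0.67, fold 0.228, 0.0927 to 0.535).

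The 9 co-chaperones, which include partners of Hspa9, had a median of 0.00. Hscb, a J-domain protein of iron-sulphur cluster assembly, was highest at 0.35, followed by the J-domain gene Dnaja3 at 0.31 and by Dnajc15 at 0.21. Clpb, a disaggregase, was lowest at −0.54 and the import J-domain gene Dnajc19 next at −0.43, with intervals below 1. Grpel2, the paralog of Grpel1, held 28 ST18 and 14 input reads (log2 −0.13, chosen after its value was seen), against 26 and 2 for Grpel1. The pair thus had similar ST18 reads and differed in input reads.

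Among the 17 proteases and their partners (median 0.13), Oma1, a stress-activated inner membrane protease, followed Xpnpep3 at 0.44, and Stoml2 stood at 0.27. Immp2l, an inner membrane peptidase, was the lowest after Pmpcb, at −0.26. The 26 import genes (median 0.02) ran from Tomm7 at 0.41, Timm13 at 0.37 and Timm23, the inner membrane channel, at 0.32 down to Tomm40l at −0.32 and Mtx1 at −0.40. The 10 stress factors (median 0.16) were led by Hsf1, the master heat shock factor, at 0.33, by the mitochondrial deacetylase Sirt3 at 0.29 and by Atf5, a factor of the mitochondrial unfolded protein response, at 0.18. Their lowest values were those of Cebpb at −0.02 and Eif2ak2 at 0.01.

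The chaperones of other compartments are given beside the members, and the differences between lists were not tested. Over all windows, 1.15% had a log2 of at least 0.58. Of the 11 cytosolic Hsp70, Hsp90 and Hsp110 genes, 4 had a log2 of at least 0.58 (median 0.25), led by Hsph1 at 1.21, Hspa8 at 1.05 and Hsp90ab1 at 0.82, with Hspa14 at −0.26 and Hspa4 at −0.39 lowest. Of the 9 subunits of the cytosolic chaperonin, the counterpart of Hspd1, 2 did (median 0.25), namely Cct3 at 1.10 and Cct6a at 0.62. Cct5 followed at 0.41, and Cct7 at 0.02 and Cct6b at −0.02 were lowest. None of 14 endoplasmic reticulum chaperones did (median 0.09), from P4hb at 0.29, Hyou1 at 0.27 and Calr at 0.19 down to Creld2 at −0.42 and Canx at −0.45. In the mitochondrial, cytosolic and chaperonin sets alike, some members stood high and others near or below the median of all windows. Among the 11 cytosolic genes the fold interval lay above 1 in 4, against 2.43% of all windows with reads. It lay below 1 in 1, against 3.32%, namely Hspa4 with a fold of 0.422 (0.187 to 0.963).

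**Figure D5:**
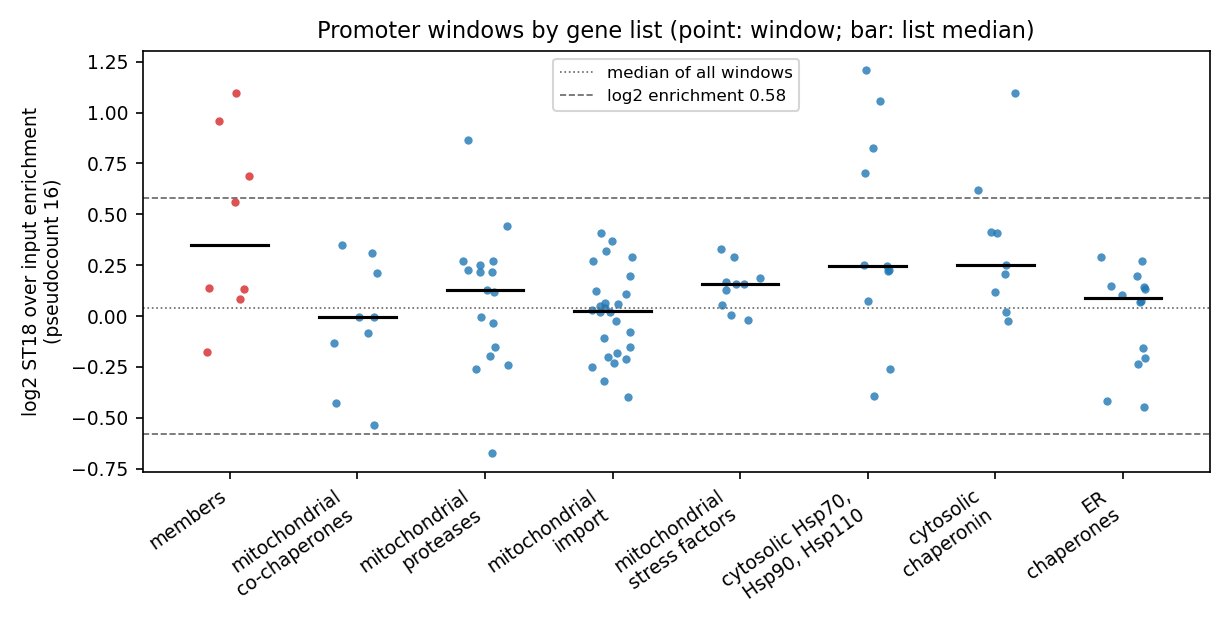
Log2 ST18 over input enrichment (vertical, pseudocount 16) of each window by gene list, with bars for list medians, a dotted line at the median of all windows and dashed lines at 0.58 and −0.58. Hspe1, Hspd1 and Hspa9 lie above the upper line, as do 4 cytosolic Hsp genes, 2 cytosolic chaperonin genes and Xpnpep3.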

How the data were processed

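The authors deposited whole-number read counts per 1000 bp promoter window and a log2 enrichment. The submitters' processing notes name Bowtie, TopHat2 2.0.8, HTSeq 0.5.4p1, edgeR, MACS2 2.0.10.20120913 and mm9, with no tool tied to this table. Not given in the labels or the file is where windows lie, whether ChIP samples were pooled and whether duplicates were removed. Summed over windows, the counts come to 438960 ST18 and 160443 input reads. The deposited log2 values equal, within 1e-06 in all 21881 windows, the log2 of the ST18 count times 0.406 plus 16 over the input count plus 16.

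From the counts, the fold over the ratio of all promoters and its exact (Clopper-Pearson) 95% interval were computed for every window with scipy 1.17.1 in Python 3.11.15. The interval was tried only on counts simulated from the binomial model that it assumes, which cannot show how well it covers real reads. Reads are not independent molecules, so intervals cover counting error only. With 1 column a group no test between conditions was made. The log2 threshold of 0.58 is a 1.49-fold ratio on the pseudocount scale. Members, lists and motifs were chosen with earlier results of these data known, and the motifs after the sequences were read. Named genes were all members and their head-to-head neighbours within 1000 bp, which could not be looked up for Hspa9. The 3 highest and 2 lowest of each other list and the 3 windows nearest Hspe1 were also named. Hsp90aa1, Mir715, Sfi1, G530011O06Rik, Grpel2, Chordc1 and Prkrip1 fall outside this rule and were named after their values were seen. Sequences are RefSeq GRCm38.p6, matched by symbol. The peak list, in mm9, was not used here. The alternatives were other pseudocounts, scaling, centring, thresholds, an input filter and counting the pair as 1 site.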

Additional observations from a re-analysis of the deposited data

How the results depend on the processing

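Using the Hspe1 window for the pair was added after seeing the data, and the other settings were planned. Each of the 8 members kept the sign of its log2 enrichment under scaling to promoter totals and under centring on the median of all windows. Other pseudocounts and the input filter cannot change this sign, so they say nothing about it. Grpel1 has no value above 5 input reads. Hspe1 ranged from 0.98 to 1.68, Hspd1 from 0.85 to 1.47, Hspa9 from 0.60 to 1.40, Grpel1 from 0.50 to 1.94 and Clpp from −0.50 to −0.18. The 3 members at 0.58 became 1 at a threshold of 1 and 4, with Grpel1, at a pseudocount of 8 or 1. At a pseudocount of 1, Grpel1 (1.94) stood above Hspe1 (1.68). These pseudocounts put 6.98% and 24.1% of all windows past 0.58. Scaling to promoter totals put 0.608% of all windows past it and centring 0.78%, against 1.15% as deposited. The member median of 0.35 became 0.55 at a pseudocount of 8, 0.89 at a pseudocount of 1, and 0.14 with the input filter, with the pair summed as 1 site and with Hspe1 standing for the pair, settings that leave 7 values. Of the 62 other mitochondrial genes, 4 were higher and 4 lower at a pseudocount of 8, 16 and 9 at a pseudocount of 1, and 0 and 0 at a threshold of 1. These moves follow from how the settings are built. The higher counts at pseudocounts of 8 and 1 stand beside the 6.98% and 24.1% of all windows given above. For the lower counts the share of all windows at these pseudocounts is not given, so nothing is read from them. Fits without a replicate were not run, since each group has 1 column. No paired analysis was possible because the ST18 column carries no replicate number. Depth limits what the members show, with 2 to 16 input reads a window.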

Other observations

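The heat shock element of 3 units, found in the shared promoter of Hspe1 and Hspd1, was looked up over all genes after it was seen there. Of 103 genes with a window and this element in a RefSeq stretch, 5 (4.85%) had a log2 enrichment of at least 0.58, against 1.13% of genes without it, and the medians were 0.05 and 0.04. The 5 were Hsph1 at 1.21, Hspe1 at 1.10, Hspd1 at 0.96, Chordc1, an Hsp90 co-chaperone, at 0.95 (70 ST18 and 7 input reads) and Prkrip1 at 0.71 (33 and 2 reads), of which Hspe1 and Hspd1 are 1 site. Without these 2, whose reads prompted the look-up, the share was 3 of 101 genes (2.97%). No test was made. The other 6 motifs are given in the same way. At least 0.58 was reached by 1.30% of genes with the heat shock element of 2 units against 1.14% without it, by 0.841% against 1.17% for the MYT1 family core, and by 0.682% against 1.17% for the cyclic AMP response element. For the NRF1 core the shares were 1.75% and 1.13%, for the ETS core 1.49% and 1.10%, and for the amino acid response element 0.476% and 1.18%. Without Hspe1 and Hspd1 the shares with the 2-unit element and the ETS core were 1.17% and 1.40%.

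Promoters rich in G and C had somewhat higher values. The log2 enrichment correlated with the G and C share across 16468 genes at Spearman's rho 0.13, a description of windows that share both libraries. At least 0.58 was reached by 0.207% of genes in the fifth with the lowest G and C share, which ends at 46.7%, and by 1.78% in the fifth from 67.0% upwards, which holds the stretches of Hspe1 and Hspd1. The fifth just below that one reached 1.89%, so the rise did not continue to the top. Read numbers also rose with the G and C share, at rho 0.36 for ST18 and 0.24 for input. The part of base composition or read number in the values of the pair was not tested.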
